A study of Mus musculus with 13 samples.

Results

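The collagen genes are the genes that encode the alpha chains of the triple-helical proteins of the extracellular matrix. They were taken here as every gene with a symbol of the form Col, number, a, number. This gave 44 of the 55353 genes in the count tables. Their levels were followed in 5 cell types of mouse liver, named from marker genes with no collagen among them: fibroblast-like cells, liver sinusoidal endothelial cell (LSEC)-like cells, large-vessel endothelium-like cells, biliary epithelial cell (BEC)-like cells and macrophage-like cells. The collagens were also left out of the genes used for clustering. 29 of the 44 collagens reached 10 CPM in at least 2 libraries of 1 of the 5 types. CPM is the gene's UMIs (unique molecular identifiers, counted RNA molecules) per 1000000 UMIs of the cells of 1 type in 1 library. It is not scaled by transcript length, so each gene is compared with itself between cells and not with another gene. The other 15 were Col2a1, Col6a4, Col9a1, Col9a2, Col9a3, Col10a1, Col11a2, Col17a1, Col19a1, Col20a1, Col22a1, Col24a1, Col25a1, Col26a1 and Col28a1.

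The study followed the liver of male C57BL/6J mice during cholestatic injury by single-cell RNA-seq. The injury was caused by DDC (diethoxycarbonyl-dihydrocollidine), a porphyrinogenic compound that damages bile ducts, at 0.1% of the chow. The mice were 6 to 12 weeks old, and the groups differed in the length of the diet. Mice were fed for 0, 3, 5, 9, 19 or 25 days (D0 to D25), and the STOP library came from mice fed for 18 days and then left to recover for 7 days. The group label of the D19 library of protocol B says day 18. Each day had 1 library from each of the isolation protocols A and B, and STOP had 1 from protocol B. Protocol A mixed sorted live cells, leukocytes, LSEC, podoplanin-positive cells, epithelial cells, other endothelial cells and retinoid-containing cells. Protocol B mixed live cells of a hepatic stellate cell preparation, Itgax-positive leukocytes without Cd64, epithelial cells and T cells. The number of cells of a type therefore follows the sort, and the labels do not say which mice went into which library, so p-values measure the spread between libraries. D0 is called steady state, D3 and D5 onset, and D9 to D25 progression.

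The 13 libraries held 29307190 to 108602421 UMIs and 1541 to 14764 cells with at least 1500 UMIs, 95563 cells in all. At most 49 cell barcodes were shared by a pair of libraries. Only libraries with at least 20 cells of a type entered a comparison. Fibroblast-like cells passed this in D0 A, D5 B, D9 A, D19 A, D25 A and D25 B, with 312, 25, 149, 94, 48 and 321 cells, and in STOP with 431. D0 B held 1 fibroblast-like cell and 2 BEC-like cells. The steady-state level of fibroblast-like, BEC-like and large-vessel endothelium-like cells thus rests on the single library D0 A, while LSEC-like and macrophage-like cells had both D0 libraries. All 18 fibroblast markers had UMIs in the fibroblast-like cells of D0 A and D25 B and 16 or 17 in the other 4 libraries, and all 10 LSEC markers in the LSEC-like cells of each of the 13 libraries. In sums over cells of a type, a larger share of one subtype and more RNA per cell cannot be told apart.

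Collagens fall into classes by how their chains assemble. Fibrillar collagens such as types I, III and V form the banded fibres of scar tissue, type IV chains form the sheet-like network of basement membranes, type VI forms beaded filaments, and fibril-associated collagens such as types XII and XIV decorate the surface of fibres. In the liver, stellate cells around the sinusoids and fibroblasts of the portal tract are known as the main makers of fibrillar collagen, and they make more of it in fibrosis, while the sinusoidal wall lacks a continuous basement membrane.

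Most collagens had their highest level in fibroblast-like cells. Of the 29 collagens above 10 CPM, the median over libraries was highest in fibroblast-like cells except for 3. These were Col13a1, highest in LSEC-like cells, Col18a1, highest in BEC-like cells, and Col23a1, highest in large-vessel endothelium-like cells. Collagen UMIs made up 1.67% of all UMIs of fibroblast-like cells in D0 A (Wilson 95% interval 1.65% to 1.68%), 2.34% in D5 B, 2.13% in D9 A, 1.97% in D19 A, 3.64% in D25 A and 5.02% in D25 B (5.00% to 5.04%). In LSEC-like cells the share lay between 0.0720% in D0 A and 0.162% in D19 B, below that of fibroblast-like cells in each library. These intervals cover counting error only.

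**Figure D1:**
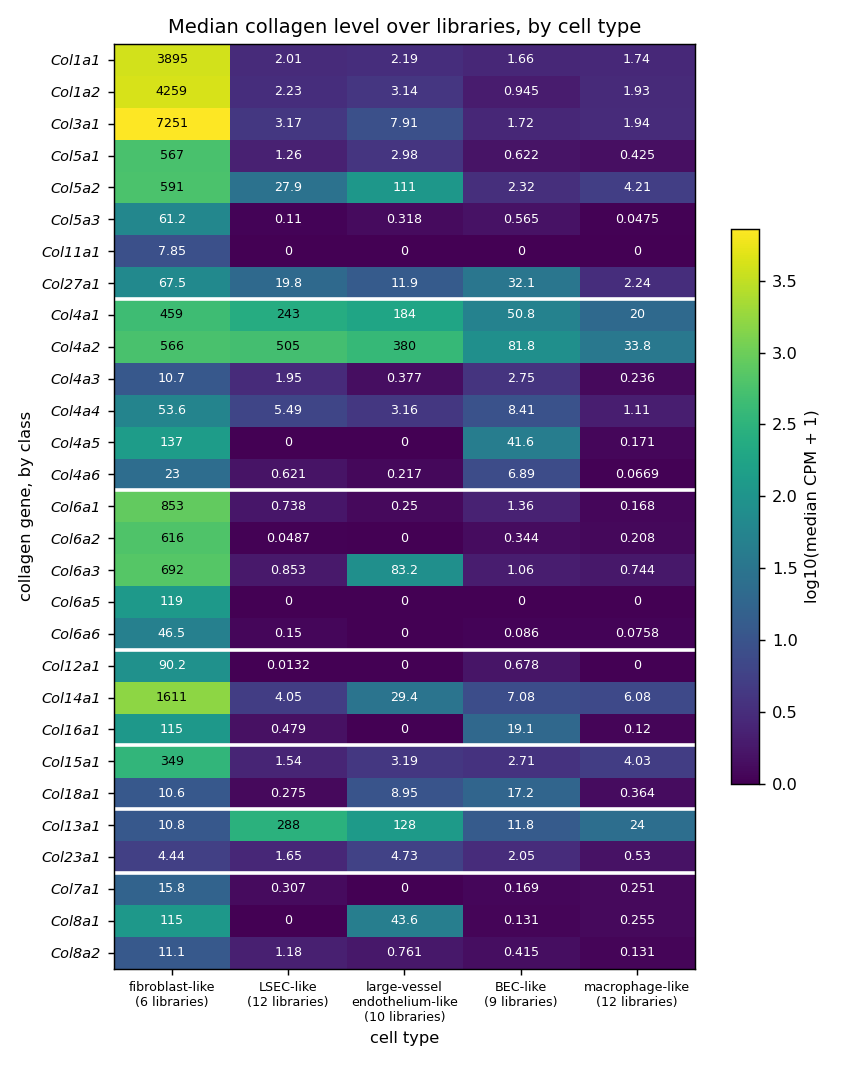
Median level in CPM of the 29 collagens above 10 CPM in 2 or more libraries, in rows by class, for the 5 cell types in columns. Numbers are median CPM over the libraries with at least 20 cells of the type and colour is log10(median CPM + 1). The fibroblast column is brightest for most genes. Col4a1 and Col4a2 stand high in 3 columns and Col13a1 in both endothelial columns.

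Among the fibrillar chains, Col1a1 and Col1a2 encode the chains of type I collagen. Col1a1 stood at 2201 CPM in D0 A, 3965 in D5 B, 3826 in D9 A, 3121 in D19 A, 8407 in D25 A and 13521 in D25 B in fibroblast-like cells. In LSEC-like cells it ranged from 0 to 10.3 CPM over 12 libraries with a median of 2.01. The levels of both types did not overlap. In a paired edgeR quasi-likelihood test over the 6 libraries with both types, Col1a1 was higher in fibroblast-like cells by 10.50 on the log2 scale (SE 0.43, adjusted p = 7.82e-10), Col1a2 by 10.58 (SE 0.32) and Col3a1, the chain of type III collagen, by 10.14 (SE 0.43). Col3a1 ranged from 4835 to 16009 CPM in fibroblast-like cells and from 0 to 31.8 in LSEC-like cells.

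Of the 31 collagens tested between fibroblast-like and LSEC-like cells, 27 were higher in fibroblast-like cells, where 52.7% of all genes were called, 26.6% as higher, and 1 was lower. The median log2 difference over the 31 was 7.46, beside -0.04 over all genes. Against large-vessel endothelium-like cells 27 of 30 collagens were higher (42.7% of all genes called, 21.4% higher) and 1 lower. Against BEC-like cells 27 of 32 were higher (44.7% called, 19.5% higher) and 1 lower, and against macrophage-like cells 30 of 32 were higher (54.8% called, 26.2% higher) and 2 lower. These comparisons used the same 6 libraries of fibroblast-like cells. In D0 A, 97 of the 312 fibroblast-like cells came from a sub-cluster led by Mup genes, which encode urinary proteins secreted by hepatocytes, and the counts of higher and lower collagens were as above in each of the 4 comparisons without it, an alternative chosen after seeing the data. The beaded-filament chains were called in each of the 4 comparisons where tested. Col6a1 ranged from 639 to 1102 CPM in fibroblast-like cells and was 0 to 1.33 CPM in LSEC-like cells, a difference of 9.72 (SE 0.27). Col14a1, a fibril-associated collagen, ranged from 1247 to 2652 CPM in fibroblast-like cells, with a difference of 7.91 (SE 0.41) from LSEC-like cells.

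Type V collagen, which nucleates and limits the width of type I fibres, followed the same order but was not as sharply divided. Col5a1 ranged from 355 to 934 CPM in fibroblast-like cells and from 0.476 to 7.16 in LSEC-like cells, a difference of 8.28 (SE 0.40). Col5a2 ranged from 361 to 1476 CPM in fibroblast-like cells but still stood at 18.8 to 54.9 CPM in LSEC-like cells and 28.1 to 141 CPM in large-vessel endothelium-like cells, and its difference from LSEC-like cells was 4.54 (SE 0.24). Col5a3 had a median of 61.2 CPM in fibroblast-like cells and a difference of 7.00 (SE 0.46). Col27a1 had the smallest called difference from LSEC-like cells, 1.69 (SE 0.25), with 25.5 to 81.2 CPM against 10.3 to 42.6 CPM. Col11a1, another fibrillar chain, had no UMI in LSEC-like, large-vessel endothelium-like or BEC-like cells of any library of the diet series, and in fibroblast-like cells it ranged from 0 to 11.2 CPM apart from 344 CPM in D25 A.

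The chains of beaded filaments and the fibril-associated collagens completed the fibroblast-like pattern. Col6a2 ranged from 422 to 799 CPM and Col6a3 from 411 to 2459 CPM in fibroblast-like cells, with differences from LSEC-like cells of 10.12 (SE 0.33) and 9.09 (SE 0.40). Col6a5 stood at 94.0 to 148 CPM and was at most 0.680 CPM in the other 4 types. Col6a6 ranged from 29.7 to 159 CPM, with a difference of 8.18 (SE 0.42). Col12a1, found on fibres under mechanical load, had a median of 90.2 CPM in fibroblast-like cells and a difference of 9.19 (SE 0.49). Col16a1 ranged from 81.7 to 160 CPM, with a difference of 7.63 (SE 0.27).

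Of the remaining classes, Col15a1, like Col18a1 a collagen with an endostatin-related end, ranged from 82.4 to 660 CPM in fibroblast-like cells and differed from LSEC-like cells by 7.46 (SE 0.43). Col8a1 ranged from 36.1 to 374 CPM with a difference of 9.16 (SE 0.38), and its partner chain Col8a2 had a median of 11.1 CPM with a difference of 3.24 (SE 0.45). Col7a1, the collagen of anchoring fibrils, had a median of 15.8 CPM and a difference of 6.35 (SE 0.72). Fibrillar chains made up 70.1% to 79.5% of the collagen UMIs of fibroblast-like cells, and type IV chains 44.9% to 78.7% of those of LSEC-like cells.

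The collagens that were not higher in fibroblast-like cells were few. Col13a1, a collagen anchored in the cell membrane, was lower than in LSEC-like cells by 5.07 on the log2 scale (SE 0.44, adjusted p = 6.41e-07). With the set-aside sub-clusters put back among the fibroblast-like cells the difference was -2.69, and without D0 A it was -5.71. Against large-vessel endothelium-like cells it was -3.74, and -1.20 with those sub-clusters. Against macrophage-like cells it was -2.15 (SE 0.42, adjusted p = 0.0012 by edgeR), and it turned to 0.19 with those sub-clusters. Col4a1, Col4a2 and Col23a1 did not pass the test against LSEC-like cells. The log2 difference was 0.88 for Col4a1 (SE 0.37) and 0.26 for Col4a2 (SE 0.29). Col18a1 did not pass against large-vessel endothelium-like cells (-0.46) or BEC-like cells (-0.33). Col9a3, a fibril-associated chain, was lower in fibroblast-like than in BEC-like cells by 3.14, and Col11a2 lower than in macrophage-like cells by 3.96, both at medians under 5 CPM in the higher type.

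Genes that modify and process collagen were also compared between fibroblast-like and LSEC-like cells, where 26.6% of all genes were higher and 26.1% lower. All 13 tested genes of propeptide removal and cross-linking were higher, led by Loxl1 (10.06, SE 0.41), Adamts2 (9.15, SE 0.50) and Lox (8.74, SE 0.41). Lox and Loxl1 encode enzymes that cross-link collagen, and Adamts2 encodes a protease that removes the amino-terminal propeptide. Of the prolyl and lysyl hydroxylation genes, 11 of 15 were higher and 2 lower, and of folding and export genes 6 of 9 were higher and none lower. Of the 9 collagen receptor genes 6 were higher and 1 was lower, Itga1 (-1.24, SE 0.35). The medians of the 4 lists were 4.05, 1.10, 1.25 and 2.13 on the log2 scale, beside -0.04 over all genes.

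The type IV chains of the basement membrane split by cell type. Col4a1 and Col4a2, which assemble into the most widespread type IV protomer, were measured in all 5 types, whereas Col4a3 to Col4a6 were mainly in fibroblast-like and BEC-like cells. Col4a1 and Col4a2 lie head to head on chromosome 8. The start sites used for their promoter windows are 21 bases apart (RefSeq, GRCm38.p6). Both promoters are shown because the pair was read together in the diet comparisons, and that of Col13a1 because it was the collagen with the highest LSEC-like level against fibroblast-like cells. Each window runs from 250 bases before to 50 bases after the start. The Col4a1 window is chr8:11312777-11313076 on the minus strand, the Col4a2 window chr8:11312555-11312854 on the plus strand, and the Col13a1 window chr10:61979059-61979358 on the minus strand. Capitals mark CCAAT or its reverse complement ATTGG.
Col4a1: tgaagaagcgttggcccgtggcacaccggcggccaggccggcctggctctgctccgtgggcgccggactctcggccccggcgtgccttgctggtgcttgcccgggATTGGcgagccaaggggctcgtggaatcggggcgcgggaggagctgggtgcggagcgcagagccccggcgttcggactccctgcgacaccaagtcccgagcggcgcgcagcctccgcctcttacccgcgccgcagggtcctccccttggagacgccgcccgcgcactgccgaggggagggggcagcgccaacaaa
Col4a2: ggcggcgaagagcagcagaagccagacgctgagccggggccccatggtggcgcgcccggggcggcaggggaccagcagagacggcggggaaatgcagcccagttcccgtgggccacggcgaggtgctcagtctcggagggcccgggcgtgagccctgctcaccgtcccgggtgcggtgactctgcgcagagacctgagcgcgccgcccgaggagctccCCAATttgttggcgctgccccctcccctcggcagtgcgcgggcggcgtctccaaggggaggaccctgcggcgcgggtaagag
Col13a1: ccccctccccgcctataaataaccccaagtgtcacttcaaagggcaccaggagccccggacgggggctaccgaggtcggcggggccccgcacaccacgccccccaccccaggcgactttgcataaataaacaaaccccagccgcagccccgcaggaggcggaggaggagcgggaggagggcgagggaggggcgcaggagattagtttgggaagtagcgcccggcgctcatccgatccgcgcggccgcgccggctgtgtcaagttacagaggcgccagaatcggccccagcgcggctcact

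The windows of Col4a1 and Col4a2 share 78 bases, so their letters are not independent. Each held 1 CCAAT box on either strand, and Col13a1 none. A CCAAT box was found in 13 of 35 collagen promoters listed and in 37.4% of all 32851 promoters of the same length. The GC-box GGGCGG, searched on both strands, was found in 22 of 35 collagen promoters and 35.7% of all, and TATAAA in 5 of 35 and 13.6% of all. The gene span of Col4a1 reaches base 11312889, further than the start of 11312826 used for its window. That of Col4a2 begins at 11312805, so both genes overlap at their starts. Whether counting used the strand is not given in the sources used here. The libraries were read from the 3′ ends of the transcripts, the ends away from this overlap. Further neighbouring pairs among the collagens were Col3a1 with Col5a2, Col4a3 with Col4a4, Col6a1 with Col6a2, Col4a5 with Col4a6, Col9a1 with Col19a1, and the run Col6a4, Col6a5 and Col6a6.

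Col4a4, Col4a5 and Col4a6 were each higher in fibroblast-like than in LSEC-like cells, by 3.04 (SE 0.29), 8.31 (SE 0.28) and 5.27 (SE 0.36), with 30.7 to 77.5, 41.2 to 160 and 11.2 to 46.7 CPM in fibroblast-like cells. Col4a3 had a median of 10.7 CPM there and differed by 2.57 (SE 0.42). In BEC-like cells Col4a5 ranged from 26.7 to 75.9 CPM over 9 libraries with a median of 41.6, while in LSEC-like cells it did not exceed 0.552 CPM and in macrophage-like cells 2.05. Of 26 collagens tested between BEC-like and macrophage-like cells over 9 libraries, 12 were higher in BEC-like cells (70.1% of all genes were called, 36.8% as higher) and 5 lower (33.3% of all genes). The higher ones were led by Col4a5 (6.85, SE 0.29), Col16a1 (5.88, SE 0.37), Col4a6 (5.30, SE 0.46) and Col18a1 (4.96, SE 0.25), whose product carries endostatin at its end. Col18a1 ranged from 10.8 to 25.3 CPM in BEC-like cells and from 0 to 0.652 in macrophage-like cells. Col27a1, a fibrillar collagen, ranged from 19.5 to 128 CPM in BEC-like cells, a difference of 3.51 (SE 0.29). Col13a1 was lower in BEC-like cells by 1.24 (SE 0.29).

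Both endothelial types differed in 11 of the 16 collagens tested, where 41.4% of all genes were called. Col8a1, a short-chain network collagen of vessel walls, had a median of 43.6 CPM in large-vessel endothelium-like cells and was at most 0.204 CPM in the 12 LSEC-like libraries. It was 0 in 1 of the 10 large-vessel libraries, so the ranges touched. Col6a3 ranged from 39.3 to 225 CPM in large-vessel endothelium-like cells and from 0 to 6.37 in LSEC-like cells, while its partner chains Col6a1 and Col6a2 had medians of 0.250 and 0 CPM in large-vessel endothelium-like cells. Of 16 collagens tested over 10 libraries, 8 were higher in large-vessel endothelium-like cells (41.4% of all genes were called, 19.9% as higher) and 3 lower (21.6% of all genes). Without the library block 3 were higher and 1 lower. The differences were 9.01 for Col8a1 (SE 0.22), 6.31 for Col6a3 (SE 0.22), 3.69 for Col18a1 (SE 0.44), 2.69 for Col14a1 (SE 0.19) and 1.77 for Col5a2 (SE 0.15). Col13a1 was lower by 1.39 (SE 0.11), Col27a1 by 0.85 (SE 0.14) and Col4a2 by 0.61 (SE 0.15). Col13a1 ranged from 243 to 409 CPM in LSEC-like cells and from 90.5 to 244 in large-vessel endothelium-like cells.

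Col1a1 was low outside fibroblast-like cells. It had medians of 2.01, 2.19, 1.66 and 1.74 CPM in LSEC-like, large-vessel endothelium-like, BEC-like and macrophage-like cells. Barcodes with 1 to 100 UMIs, which hold free RNA and debris, gave 0.926 CPM of Col1a1 in D0 B, 72.2 in D0 A and 752 in D25 B, the library with the most fibroblast collagen. The part of such RNA in the levels of the other types was not tested.

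The diet comparison asked whether collagen levels changed between D0 and the DDC libraries of days 3 to 25. Col4a1 had the smallest unadjusted p of the collagens in fibroblast-like cells. It stood at 51.5 CPM in D0 A and at 566, 265, 352, 649 and 1403 CPM in D5 B, D9 A, D19 A, D25 A and D25 B. All 5 diet libraries lay above the D0 library. Col4a2 stood at 202 CPM in D0 A and between 413 and 1985 CPM in the 5 diet libraries. In the edgeR test with isolation protocol as a block, the log2 change of Col4a1 was 2.96 (SE 0.66, adjusted p = 0.30) and of Col4a2 1.45 (SE 0.61, adjusted p = 0.51), so neither passed the test.

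**Figure D2:**
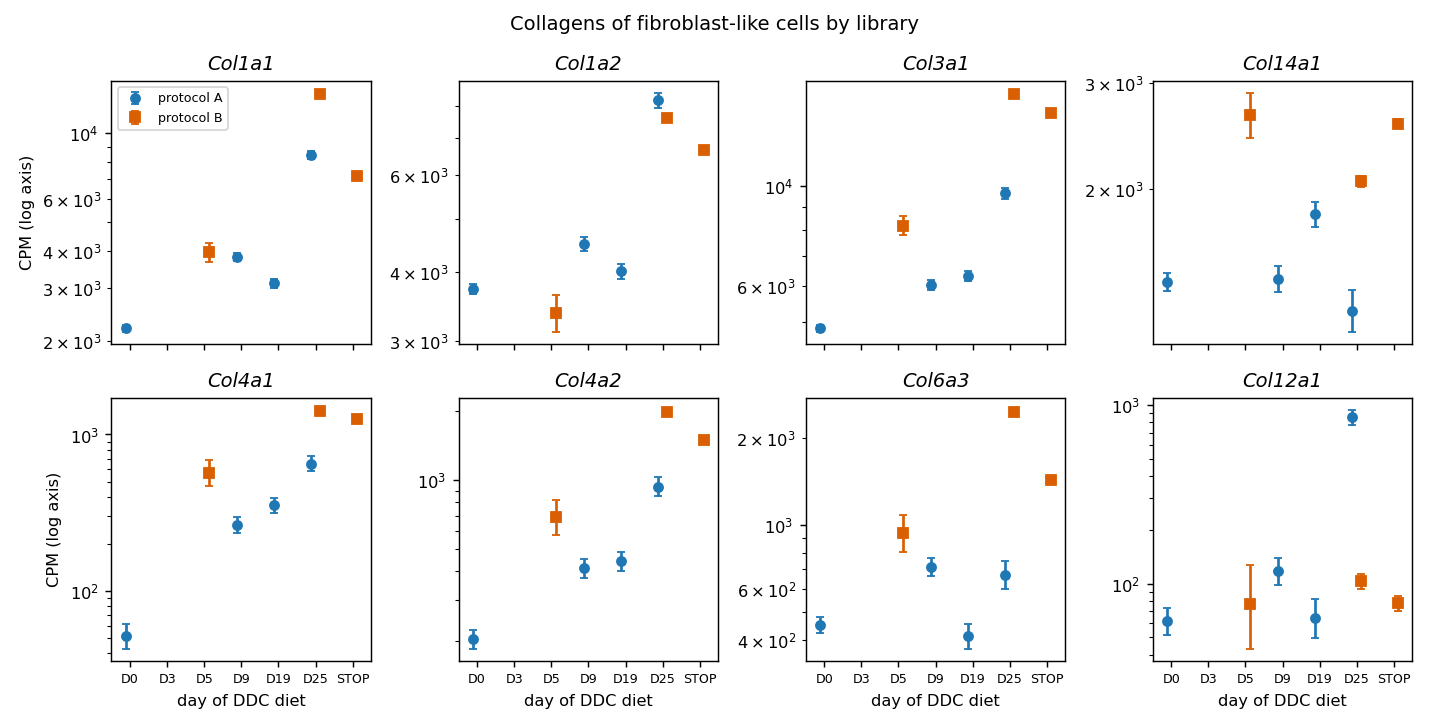
Level in CPM (log axis) of 8 collagens in fibroblast-like cells by day of DDC diet, with circles for protocol A, squares for protocol B and bars for exact Poisson 95% intervals of the counts. Col4a1 rises from 51.5 CPM in D0 A to at least 265 in each diet library. Col12a1 stands at 854 CPM in D25 A and between 61.7 and 118 in the other diet and D0 libraries.

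No collagen of 30 was called in fibroblast-like cells by edgeR, where 0.0% of 10474 genes were called and 983 had an unadjusted p under 0.05. Of the collagens, 2 had an unadjusted p under 0.05, Col4a1 and Col4a2, and DESeq2 called 1, Col4a1 (2.98, adjusted p = 0.000607). Over all genes DESeq2 called 23. Without D19 A the edgeR log2 change of Col4a1 was 3.07. The full edgeR fit had 2 residual degrees of freedom with D0 A as its only D0 library, and this refit had fewer. The median log2 change over the 30 was 0.23, beside -0.03 over all genes. Col1a1 changed by 1.07 (SE 0.73) and Col3a1 by 0.60 (SE 0.60), neither past the test. Both estimates moved with the choice of cells and model. Without cells that carry 3 or more markers of another lineage they were 0.47 and 0.094, and with the set-aside sub-clusters put back they turned to -0.17 and -0.55. Without the sub-cluster led by Mup genes they were 0.52 and 0.10, and that of Col4a1 was 3.40. Without D25 A they were 0.44 and 0.32, and that of Col4a2 was 0.91. Other settings gave larger values. Without the protocol block the estimates were 1.68 for Col1a1, 1.07 for Col3a1 and 2.27 for Col4a2, and without D5 B, the only onset library, they were 1.45, 0.82 and 1.78 for progression alone against D0. The libraries differed in their mix of fibroblast subtypes, described after the diet comparisons.

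In LSEC-like cells Col4a2 was called. Its D0 levels were 248 CPM (protocol A) and 256 CPM (protocol B), and over the 10 diet libraries it ranged from 433 to 839 with a median of 544. The groups did not overlap, within protocol A (433 to 599 against 248) or within protocol B (505 to 839 against 256). The log2 change was 1.22 (SE 0.22, adjusted p = 0.032). It was the only 1 of 15 collagens called, where 0.553% of all genes were called, 0.244% as higher. Without D0 A, D5 A, D19 A or D25 A the adjusted p of Col4a2 was 0.056, 0.053, 0.061 or 0.060 at log2 changes of 1.17 to 1.25. DESeq2 called 4 collagens, and 299 genes in all. The median log2 change over the 15 was -0.35 by edgeR, beside -0.046 over all genes. Of the 15, 6 had an unadjusted p under 0.05 by edgeR, and 3 of these were higher on diet. Over all genes 1546 of 12306 had such a p, 629 of them higher.

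The clusters that made up LSEC-like cells differed between libraries, most clearly for D0 A. Cluster 3, whose leading genes include the hepatocyte genes Mup11 and Serpina1e and the interferon-induced Ifit1 and Ifi44, held 85.3% of the LSEC-like cells of D0 A and 46.9% of those of D0 B, and 0.378% to 32.9% on diet, with the highest of these shares in D3 A. Cluster 4 held 38.7% of the LSEC-like cells of D0 B and 2.50% of those of D0 A. Within cluster 3, Col4a2 stood at 240 and 235 CPM at D0 and at 352 to 489 CPM in the 5 diet libraries with at least 20 of its cells. Within cluster 2 it stood at 286 and 233 CPM against 437 to 929 in 8 diet libraries. In these clusters the diet libraries lay above both D0 libraries, whereas in cluster 4 the levels overlapped, at 260 and 307 CPM against 289 to 553. The part of the mix of clusters in the change of the summed cells was not tested.

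Col4a1 in LSEC-like cells did not pass the test, and its 2 D0 libraries differed. Its D0 levels were 58.4 CPM (protocol A) and 149 CPM (protocol B), and it ranged from 146 to 434 in the diet libraries, with a log2 change of 1.47 (SE 0.41, adjusted p = 0.14). The groups overlapped only through D25 B, at 146 CPM. The estimate depended on which D0 library was used. Without D0 B it was 2.28 (adjusted p = 0.034 by edgeR), without D0 A 0.85 (adjusted p = 0.33) and without D25 B 1.61 (adjusted p = 0.039). DESeq2 called it (1.47, adjusted p = 0.011). Col13a1 stood at 278 and 309 CPM in the D0 libraries and ranged from 243 to 409 on diet, and the groups overlapped. Col4a4, a chain of the second type IV network, stood at 13.1 and 12.6 CPM at D0 and ranged from 2.68 to 6.80 on diet. Its log2 change was -1.33 (SE 0.32, adjusted p = 0.095).

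In large-vessel endothelium-like cells Col4a1 stood at 42.0 CPM in D0 A and ranged from 121 to 927 CPM over 9 diet libraries with a median of 189. Col4a2 stood at 180 CPM in D0 A and ranged from 253 to 1370. Each diet library lay above D0 A for both chains. The cells fell in 2 clusters whose mix differed, with cluster 27 holding 89 of 333 cells in D0 A, 128 of 429 in D9 A and 24 of 32 in D25 B, and the part of this mix was not tested. Their log2 changes were 2.41 (SE 0.66, adjusted p = 0.16) and 1.30 (SE 0.55, adjusted p = 0.39) by edgeR. None of 16 collagens was called, where 0.283% of all genes were (0.175% as lower). Of the 16, 3 reached an unadjusted p under 0.05, beside 1298 of all 11999 genes, and the DESeq2 count was 0. The highest diet library was D25 B, whose large-vessel endothelium-like cells held 423 CPM of the fibroblast marker Dcn. Those of the other libraries held 11.4 to 54.7 CPM. The part of fibroblast RNA in the levels of D25 B was not tested. Without D25 B the log2 change of Col4a1 was 2.37. D0 A was the only D0 library of these cells, so the spread in their diet test came from the diet libraries.

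In BEC-like cells 2 of 27 collagens were called, where 3.18% of all genes were (1.08% as higher and 2.1% as lower), and both were higher on diet. Col4a1 stood at 13.9 CPM in D0 A and ranged from 29.9 to 80.1 over 8 diet libraries, a log2 change of 2.26 (SE 0.37, adjusted p = 0.017). Col4a2 stood at 42.1 CPM in D0 A and ranged from 50.8 to 115, a change of 1.44 (SE 0.27, adjusted p = 0.025). Col4a5 led the chains higher in BEC-like than in macrophage-like cells, but its median was highest in fibroblast-like cells. In BEC-like cells it stood at 75.9 CPM in D0 A and ranged from 26.7 to 52.5 on diet. Its change of -0.92 (SE 0.33) did not pass the test. Without D9 A, D9 B, D19 B or D25 A the adjusted p of Col4a2 was 0.051 to 0.065.

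D0 A was the only D0 library of BEC-like cells, so the spread in their diet test came from the diet libraries. The clusters that made up BEC-like cells also differed between D0 and diet. Cluster 29, led by Snorc and Lamc3, held 86.6% of the BEC-like cells of D0 A and 1.33% to 39.0% of those on diet, where clusters 16, 21, 36 and 38 held most. Within cluster 29, Col4a2 stood at 41.3 CPM in D0 A and at 47.8 to 67.8 in 4 diet libraries with at least 20 of its cells, and Col4a1, at 19.1 to 31.0 CPM in these 4, also lay above its D0 A level. On diet, Col4a1 was 41.4 to 88.1 CPM in cluster 16 and 69.8 to 157 CPM in cluster 36, which held 1.39% and 1.01% of the D0 A cells. Within cluster 21, Col4a1 stood at 19.6 CPM in D0 A and at 34.0 to 48.3 CPM in 7 diet libraries. The part of the mix of clusters in the called changes was not tested.

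Lair1, an inhibitory collagen receptor of leukocytes, was the 1 of 7 receptor genes called in BEC-like cells, where 3.18% of all genes were called and 1.08% as higher. Its change was 2.64 (SE 0.61, adjusted p = 0.049). It stood at 2.12 CPM in D0 A and at 8.55 to 34.2 CPM on diet, and at 145 to 344 CPM in macrophage-like cells. The summed level of 34 macrophage, T cell and B cell markers in BEC-like cells was 331 CPM in D0 A and 728 to 2428 CPM on diet. Cells with 3 or more markers of another lineage numbered 44 of 791 in D0 A. In the diet libraries of the same protocol they numbered 257 of 1572 (D9 A), 8 of 95 (D19 A) and 136 of 1379 (D25 A). In protocol B they numbered 68 of 164 (D3 B), 220 of 455 (D5 B), 134 of 300 (D9 B), 180 of 553 (D19 B) and 175 of 535 (D25 B). D0 A is thus set beside another protocol in the latter. Without such cells Lair1 was not called (2.89, adjusted p = 0.17), and the part of leukocyte RNA in its change was not tested.

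In macrophage-like cells 3 of 13 collagens were called, where 5.3% of all genes were (2.35% as higher), and all 3 were higher on diet. The D0 levels of Col4a1 were 8.80 CPM (protocol A) and 1.75 CPM (protocol B), and it ranged from 7.07 to 63.2 on diet. Its log2 change was 2.54 (SE 0.43, adjusted p = 0.0048). Col4a2 changed by 2.45 (SE 0.41, adjusted p = 0.0048) and Col13a1 by 1.54 (SE 0.41, adjusted p = 0.042). Within each protocol the diet libraries lay above the D0 library for all 3 genes. The D0 libraries weighed unequally. Without D0 B the change of Col4a2 was 2.00 and that of Col13a1 1.23 (adjusted p = 0.093). Without D0 A the reference is D0 B, which held 1 UMI of Col13a1 (fitted change 4.21) and none of Col4a2 (fitted change 11.38). These fitted values depend on the prior count and are no bounds. Without the protocol block none of the 3 was called (adjusted p = 0.15, 0.27 and 0.60). The adjusted p of Col4a1 was 0.056 without D0 A, and Col13a1 lost its call in 7 of the settings that left out a library, at 3000 UMIs per cell (adjusted p = 0.052) and without cells with markers of another lineage (adjusted p = 0.058).

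The mix of macrophage-like clusters also changed. Cluster 7, led by the Kupffer cell genes Clec4f, Marco and Timd4, held 74.8% of the cells of D0 A, 7.40% of those of D0 B and 13.2% to 58.7% on diet. Cluster 0, led by Gpnmb and Trem2, held 7.71% and 54.7% at D0 and 27.5% to 81.9% on diet. In cluster 0, Col4a1 had no UMI at D0 and reached at most 9.98 CPM on diet. In cluster 7 of protocol A it stood at 10.9 CPM in D0 A and at 35.9 to 75.7 CPM on diet, without overlap. In cluster 7 of protocol B it stood at 27.9 CPM in D0 B and at 4.87 to 54.4 CPM on diet, with overlap. D0 B had 25 cells of this cluster, and all its macrophage-like cells held 3 UMIs of Col4a1. Cluster 23, led by Mmp13 and Gdf15, held 3.15% and 0.592% of the cells at D0 and 3.90% to 24.4% on diet, where Col4a1 stood at 49.4 to 154 CPM in it. Cluster 49, led by Ccl8 and H2-M2, held 14.4% and 37.3% at D0, with 2.09 and 0 CPM of Col4a1, and at most 0.680% on diet. The part of the mix of clusters in the macrophage-like changes was not tested.

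Lymphocytes, which should lack these chains, also held UMIs of these chains. In protocol A, Col4a1 ranged from 8.80 to 63.2 CPM in macrophage-like cells and from 15.5 to 123 CPM in B cell-like cells of the same 5 libraries, and macrophage-like cells lay below in each of the 5 for Col4a1, Col4a2 and Col13a1. BEC-like cells lay below B cell-like cells for the same 3 genes in each of 3 protocol A libraries. T cell-like cells of protocol A gave the opposite order, but on few UMIs. All collagens together had 6, 10 and 16 UMIs in those of D0 A, D9 A and D25 A, so the counting error is large. In D0 A, D9 A and D25 A, with 47, 31 and 57 such cells, their Col4a1 was 6.63, 0 and 18.6 CPM, below the 8.80, 45.6 and 43.2 CPM of macrophage-like and the 13.9, 51.9 and 56.2 CPM of BEC-like cells. Both types also lay above them for Col4a2 and Col13a1 in each of the 3 libraries. In protocol B, Col4a1 ranged from 29.9 to 54.5 CPM in BEC-like cells and from 0.432 to 3.34 in T cell-like cells of the same 5 libraries, and BEC-like cells lay above in each. Macrophage-like cells of protocol B lay above T cell-like cells in 5 of 6 libraries, with 1.75 to 21.3 CPM. All 10 LSEC markers had UMIs in macrophage-like cells of every library. Their summed level there was 1620 CPM (protocol A) and 397 CPM (protocol B) at D0 and 880 to 3619 CPM on diet, beside 8233 to 15160 CPM in LSEC-like cells. In BEC-like cells it was 372 CPM in D0 A and 387 to 969 CPM on diet. Of the 24 LSEC and large-vessel markers, 9 were found in under 10% of macrophage-like cells. Whether macrophage-like or BEC-like cells make some of the 10 LSEC markers themselves was not tested. The sum is thus no measure of LSEC RNA alone. Col4a1 in B cell-like cells was 15.5 CPM in D0 A. On diet it was 50.3, 75.1, 123 and 69.7 CPM in D3 A, D5 A, D9 A and D25 A. Barcodes with 1 to 100 UMIs gave 29.3 CPM in D0 A and 65.6 to 159 CPM in the protocol A diet libraries. In protocol B they gave 5.55 CPM in D0 B and 6.76 to 60.5 CPM on diet. T cell-like cells of protocol B held 3.81 CPM in D0 B and 0.432 to 3.34 CPM on diet. The part of LSEC RNA and of free RNA in the BEC-like and macrophage-like levels and changes was not tested.

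**Figure D3:**
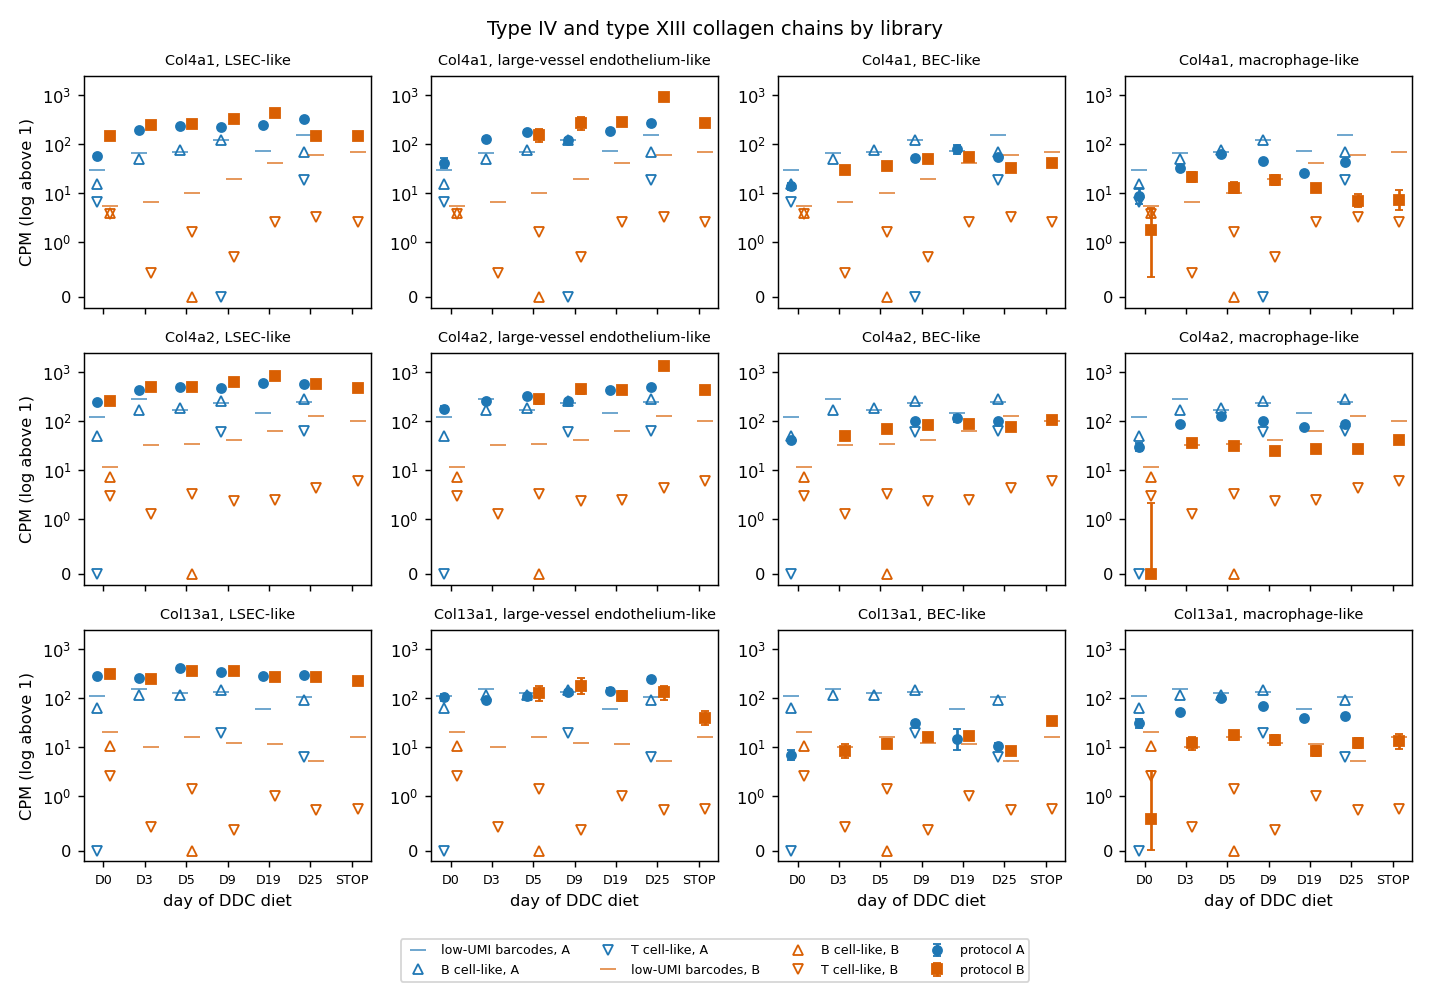
Level in CPM (log above 1) of Col4a1, Col4a2 and Col13a1 by day of DDC diet in 4 cell types, with filled circles for protocol A, filled squares for protocol B and bars for exact Poisson 95% intervals. Open triangles are B cell-like (up) and T cell-like (down) cells and short lines are barcodes with 1 to 100 UMIs. LSEC-like levels lie above the lymphocyte levels in each library, while protocol A macrophage-like levels lie below those of B cell-like cells and above those of T cell-like cells. The T cell-like levels of protocol A rest on few UMIs.

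The change between onset and progression was tested in the same fits, and no collagen was called in any of the 5 types by edgeR with its filter on low counts. With no filter edgeR called 1 in fibroblast-like, 3 in LSEC-like, 2 in large-vessel endothelium-like, 5 in BEC-like and 4 in macrophage-like cells. The share of all genes called without the filter was not taken, so these counts have no background beside them. In fibroblast-like cells, where 0.0% of all genes passed, 6 of 30 collagens reached an unadjusted p under 0.05 and the DESeq2 count was 1. In LSEC-like cells 0.0406% of all genes passed (0.00813% as higher), 5 of 15 collagens reached an unadjusted p under 0.05 and the DESeq2 count was 1. In large-vessel endothelium-like cells 0.142% of all genes passed, 6 of 16 collagens reached that level and the DESeq2 count was 0. In BEC-like cells 0.0% passed, 4 of 27 collagens reached it and the DESeq2 count was 0. In macrophage-like cells 0.168% passed (0.104% as higher and 0.0641% as lower), 5 of 13 collagens reached it and the DESeq2 count was 2. Over all genes, 619 of 10474 reached that unadjusted level in fibroblast-like, 890 of 12306 in LSEC-like and 649 of 11999 in large-vessel endothelium-like cells. It was reached by 886 of 15988 genes in BEC-like and 1524 of 12482 in macrophage-like cells. Over all genes DESeq2 called 10, 68, 23, 15 and 208 in the 5 types, in the same order. Onset in fibroblast-like cells was the single library D5 B with 25 cells. The largest estimate with a UMI on both sides and an unadjusted p under 0.05 there was Col15a1, with a log2 change of 3.09 (SE 0.62, adjusted p = 0.72).

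The diet effect was compared directly between fibroblast-like and LSEC-like cells over the 6 libraries that held both, which share D0 A as the only steady-state library. None of 32 collagens differed (0.0% of 13568 genes by edgeR, 691 with an unadjusted p under 0.05), 7 collagens reached an unadjusted p under 0.05, and the DESeq2 count was 0. The difference of the log2 changes was 1.21 for Col4a1 (SE 0.85) and 0.61 for Col4a2 (SE 0.72), each less than 2 SE from 0.

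**Figure D4:**
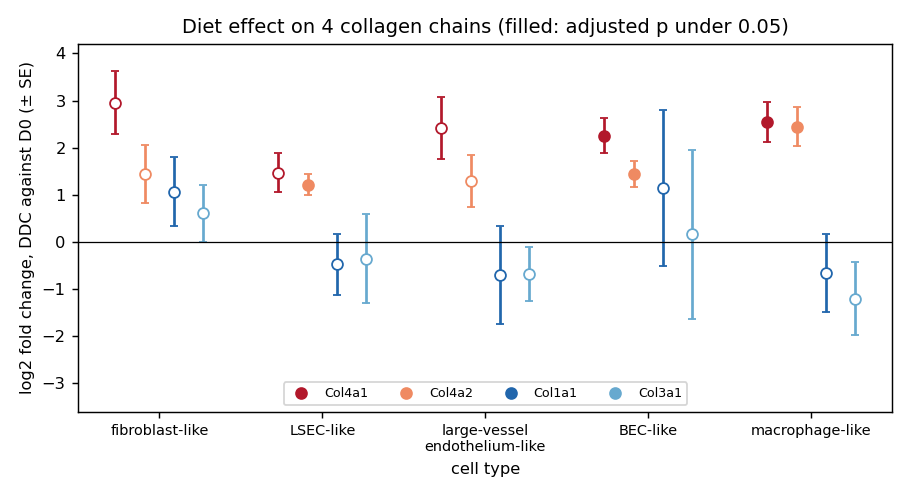
Log2 fold change of Col4a1, Col4a2, Col1a1 and Col3a1 between the DDC libraries and D0 in 5 cell types, with bars of 1 SE and filled points for an adjusted p under 0.05. Col4a1 and Col4a2 lie above 0 in each type, with Col4a2 filled in LSEC-like, BEC-like and macrophage-like cells. Col1a1 and Col3a1 are unfilled throughout.

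Few of the other collagen pathway genes passed the diet test. None of the 4 lists had a called gene in fibroblast-like or large-vessel endothelium-like cells by edgeR. P4ha1, a catalytic subunit of prolyl 4-hydroxylase, which stabilises the collagen helix, was lower on diet in LSEC-like cells by 1.08 (SE 0.21, adjusted p = 0.043), 1 of 14 hydroxylation genes tested, where 0.553% of all genes were called and 0.309% as lower. It was also lower in macrophage-like cells by 0.91 (SE 0.21, adjusted p = 0.023). In macrophage-like cells, where 5.3% of all genes were called and 2.35% as higher, 2 of 8 folding and export genes were higher, Sec23a (3.88, SE 0.80) and Tram2 (1.13, SE 0.31), and 2 of 5 cross-linking genes, Pcolce (1.96, SE 0.47) and Sparc (1.88, SE 0.41). Without cells with markers of another lineage Sec23a changed by 7.81. Sparc, a collagen-binding protein, stood at 175 CPM (protocol A) and 12.8 CPM (protocol B) at D0 and at 67.8 to 577 on diet, beside 262 to 901 CPM in B cell-like cells of D0 A, D3 A, D5 A, D9 A and D25 A. Pcolce, an enhancer of propeptide removal, was at most 8.42 CPM in macrophage-like cells. The summed fibroblast markers stood at 408 and 46.6 CPM at D0 and at 120 to 332 CPM on diet in macrophage-like cells, and the summed LSEC markers at 397 CPM in D0 B and at least 880 CPM in the diet libraries of protocol B. The part of RNA of other cells in these changes was not tested.

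Fibroblast-like cells were split into subtypes by markers. Portal fibroblast-like cells numbered 211 in D0 A, 129 in D9 A, 73 in D19 A, 30 in D25 A, 38 in D25 B and 33 in STOP. Stellate-like cells numbered 62 in D25 B and 282 in STOP, while 199 of the 321 cells of D25 B and 102 of the 431 of STOP stayed unnamed. A stellate-like sub-cluster of 163 cells, 92.0% of them from STOP, was named only against cells of other types, not against other fibroblast-like cells. A further sub-cluster of 101 cells, 97 of them from D0 A, also matched the stellate list, with 8 of its 9 markers detected. It was led by Mup1, Mup3, Mup7, Mup11 and Serpina1e, genes of hepatocytes, and carried LSEC markers at 35.9% of their level in LSEC-like cells. It is called the Mup-led sub-cluster and not stellate-like. Of the 99 cells of D0 A that matched the stellate list, 64 carried 3 or more markers of another lineage, against 5 of 62 in D25 B. The mix of subtypes thus changed with the library. Within portal fibroblast-like cells Col4a1 stood at 34.3 CPM in D0 A and at 228, 265, 620 and 610 CPM in D9 A, D19 A, D25 A and D25 B, a log2 change of 3.59 that did not pass the test (adjusted p = 0.80). Col1a1 in these cells stood at 3093 CPM in D0 A, 3613 in D9 A, 3064 in D19 A, 9714 in D25 A and 10114 in D25 B, so only the D25 libraries stood apart. In stellate-like cells Col1a1 stood at 5131 CPM in D25 B and 5815 in STOP, and Col15a1 at 248 CPM in both. Nearly all cells of D0 A that matched the stellate list were in the Mup-led sub-cluster, so no D0 level free of it is given. The unnamed cells of D25 B had 16530 CPM of Col1a1 and 1740 of Col4a1, above the portal fibroblast-like and stellate-like cells of that library.

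Portal fibroblast-like and stellate-like cells could be set side by side in D25 B alone, with 38 and 62 cells, 1 library and no test. Col6a5 stood at 593 CPM in portal fibroblast-like cells (exact Poisson 95% interval 522 to 671) and had no UMI in stellate-like cells, which allows up to 4.70 CPM. Col4a5 stood at 205 CPM (164 to 253) against 37.0 (24.7 to 53.1). Col4a2 and Col14a1 were lower in portal fibroblast-like cells, with 857 (771 to 949) against 1139 (1066 to 1216) CPM and 2005 (1873 to 2145) against 3579 (3448 to 3714) CPM. Of 26 collagens with at least 10 UMIs, 17 had intervals apart and higher in portal fibroblast-like cells and 2 lower, where 16.5% of all genes had intervals apart, 8.68% higher and 7.8% lower.

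The test over 2 libraries took all cells that matched the stellate list, so that its D0 A side was the Mup-led sub-cluster for all but 2 cells, and the part of that sub-cluster's other RNA in the result was not tested. Col6a5 stood at 211 CPM in D0 A in portal fibroblast-like cells, against 12.6 in the stellate-list cells, and Col4a5 at 195 against 4.19. Over both libraries, paired by library in edgeR, 11 of 24 collagens were higher in portal fibroblast-like cells, where 11.2% of all genes were called, 6.39% as higher, and none lower. With the 2 libraries the fit has 1 residual degree of freedom of its own and borrows its spread from all genes. The called chains were Col6a5 (5.95, SE 0.86), Col6a6 (5.88, SE 0.56), Col4a6 (3.87, SE 0.61), Col4a4 (3.73, SE 0.44), Col4a5 (3.60, SE 0.58), Col8a2 (3.29, SE 0.69), Col6a2 (2.74, SE 0.57), Col12a1 (2.49, SE 0.61), Col6a1 (1.97, SE 0.51) and Col5a3 (1.49, SE 0.45). The eleventh was Col4a3, at 14.2 and 23.5 CPM against 0 and 0. In D25 B alone the counting intervals of 10 of the 11 lay apart, and those of Col5a3 overlapped. The 11 were called with D25 B as 1 of the 2 libraries, so this count is no separate support. Of all genes compared there, 8.68% had intervals apart and higher. Without the library block 3 collagens were called, and without cells that carry markers of another lineage 7.

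In the same fit Col4a1 and Col4a2 had estimates of -0.63 (SE 0.46) and -0.83 (SE 0.47), which did not pass, and Col14a1 of -0.50 (SE 0.56). Col1a1 had an estimate of 2.24 (SE 0.81) and did not pass, with 3093 and 10114 CPM in portal fibroblast-like cells against 300 and 5131 CPM in the stellate-list cells. Pcolce2 (7.08, SE 0.77), Fmod (3.18, SE 0.44) and Lox (2.55, SE 0.68) were among 5 of 12 cross-linking genes higher in portal fibroblast-like cells, beside 6.39% of all genes.

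**Figure D5:**
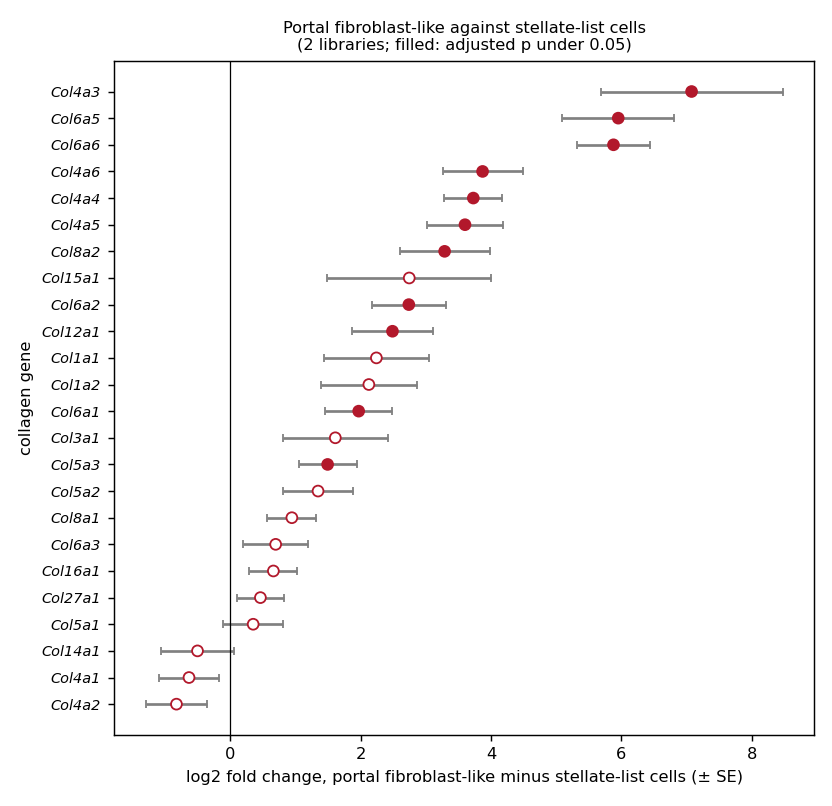
Log2 fold change of 24 collagens between portal fibroblast-like cells and the cells that matched the stellate list in D0 A and D25 B, with bars of 1 SE and filled points for an adjusted p under 0.05. The 11 filled points lie to the right of 0, and all but 2 of the 99 stellate-list cells of D0 A belong to the Mup-led sub-cluster. The point of Col4a3, which had no UMI in the stellate-list cells of either library, depends on the prior count of the fit.

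Diet withdrawal was represented by STOP alone, which is set beside D19 of protocol B, the nearest library of the same protocol. There is 1 library a group and no test, and exact Poisson 95% intervals cover counting error only. Collagens with at least 10 UMIs over both libraries were compared. In LSEC-like cells Col4a1 stood at 148 CPM in STOP (135 to 161) and 434 in D19 B (407 to 463), and Col4a2 at 485 (463 to 509) and 839 (801 to 878). The intervals of both chains lay apart in the summed cells. For Col4a1, STOP stood at the level of D0 B (149 CPM) and also of D25 B (146 CPM), a diet library of the same protocol. D0 A stood lower, at 58.4 CPM. For Col4a2, STOP stood above D0 B (256 CPM) and below D25 B (583 CPM). Col5a2 stood at 95.8 CPM in STOP (86.0 to 106) and 36.6 in D19 B (29.1 to 45.4). Of 14 collagens 9 had intervals apart, 5 higher and 4 lower in STOP, where 27.1% of all genes had, 18.7% higher and 8.4% lower. The clusters differed between both libraries, since cluster 3 held 25.7% of the LSEC-like cells in STOP and 1.75% in D19 B, and cluster 1 held 22.9% and 51.9%. Within cluster 1, Col4a1 stood at 169 CPM in STOP and 323 in D19 B, and within cluster 2 at 219 and 605 CPM. Within cluster 3 it stood at 93.0 CPM in STOP, with under 20 such cells in D19 B. The part of the mix of clusters was not tested.

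In large-vessel endothelium-like cells 3 of 11 collagens had intervals apart (15.9% of all genes), and 6 without cells with markers of another lineage. Col5a2 stood at 231 CPM in STOP (201 to 265) and 93.1 in D19 B (69.9 to 121), Col14a1 at 133 (110 to 160) and 29.3 (17.1 to 46.9), and Col13a1 at 39.9 (27.8 to 55.5) and 112 (86.4 to 143). In BEC-like cells 16 of 28 did (39.1% of all genes, 20% higher and 19.1% lower), 11 higher and 5 lower, among them Col4a5 at 28.3 CPM (25.4 to 31.5) and 51.7 (47.5 to 56.2). Clusters and markers of other cells differed too. Cluster 29 held 24.0% of the BEC-like cells in STOP and 3.44% in D19 B, and cluster 16 held 27.2% and 48.5%. The summed LSEC markers in BEC-like cells stood at 2000.2 CPM in STOP and 656 in D19 B, and 275 of 592 against 180 of 553 cells carried 3 or more markers of another lineage. Col1a1, among the 11 higher ones, stood at 11.6 and 1.23 CPM in BEC-like cells and at 420 and 26.4 CPM in barcodes with 1 to 100 UMIs. Without the cells with such markers 12 collagens had intervals apart, 9 higher and 3 lower, and the part of the clusters and of RNA of other cells was not tested. In macrophage-like cells 5 of 13 did (25.9% of all genes). Cluster 7 held 31.1% of these cells in STOP and 13.2% in D19 B, and cluster 0 held 61.4% and 81.9%. Their summed LSEC markers, which may include RNA of these cells themselves, stood at 1511 and 880 CPM. The part of these differences was not tested. Fibroblast-like cells of D19 B numbered 12 and were not compared. In STOP they stood at 7174 CPM for Col1a1, 14586 for Col3a1 and 1247 for Col4a1.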

How the data were processed

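The authors deposited, for each of the 13 libraries, a matrix with the raw UMI count of each gene in each barcode (kallisto and GRCm38 in the submitters' processing notes). Versions are not given in the sources used here. The deposited tables hold 17968683 barcodes, most of them with few UMIs. A barcode counted as a cell from 1500 UMIs. Cells of all libraries were clustered without collagens (scanpy 1.11.5, 2000 variable genes, 40 principal components, 25 neighbours, Leiden resolution 1.5, 58 clusters) and named by marker lists. Fibroblast-like clusters were clustered again, and 465 cells of sub-clusters led by genes of another type were set aside. Another sub-cluster of 101 cells matched the stellate list but was led by Mup genes, so the text does not call it stellate-like. No doublet caller was run, and cells with at least 3 markers of another lineage were left out as an alternative. There were 0 columns without a sample.

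UMI counts were summed per type and library where a type had at least 20 cells, and tested with edgeR 4.0.16 in R 4.3.3 (TMM scaling, filterByExpr, quasi-likelihood F test, Benjamini-Hochberg adjustment over all genes tested, threshold 0.05). Types were compared with library as a block. The diet was compared as the mean of onset and progression against D0, with isolation protocol as a block. The titles of the diet series name protocol A or B for each library. For macrophage-like cells the differences between protocols were correlated across all 15 pairs of days (median r = 0.561), and for LSEC-like cells across 7 of 15 pairs over 0.1 (median r = 0.0881), as a check of this block. DESeq2 1.42.0, no filter, no block, 3000 UMIs per cell and leaving out each library were alternatives. The edgeR scripts were tested on simulated data. Values are given for collagens with at least 10 CPM in at least 2 libraries of a type, and for others only where called. Pathway genes are named only among the 3 largest called of a list. Depth was 29307190 to 108602421 UMIs per library, and 95% intervals cover counting error only. The collagens and the pathway lists were chosen with earlier results of these data known. Promoter windows and positions come from RefSeq GRCm38.p6, in which all 44 collagens matched and 35 had a promoter listed.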

Additional observations from a re-analysis of the deposited data

Results flagged for a closer look

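Within-group spread of the collagens above 20 CPM was checked in 49 groups of 4 or 6 libraries, and 8 groups held 1 library whose gap to the others exceeded Dixon's 95% value. Chance flags about 1 in 20 groups. Causes were not tested.

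In progression, fibroblast-like cells of D25 B carried 2459 CPM of Col6a3, against 411 to 713 CPM in the other libraries, with UMIs in 301 of 321 cells. Fibroblast-like cells of D25 A carried 854 CPM of Col12a1, against 64.4 to 118 CPM, and 5 of its 48 cells held 50.1% of these UMIs. In the same library 5 cells held 61.3% of the UMIs of Col11a1 and 81.4% of those of Col7a1. Fibroblast-like cells of D9 A carried 159 CPM of Col6a6, against 29.7 to 48.0 CPM, spread over 61 of 149 cells.

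At onset, LSEC-like cells of D3 A carried 433 CPM of Col4a2, against 495 to 506 CPM, and those of D5 B 18.8 CPM of Col5a2, against 27.7 to 28.6 CPM. In progression, large-vessel endothelium-like cells of D25 B (32 cells) carried 927 CPM of Col4a1, against 121 to 284 CPM, and 1370 CPM of Col4a2, against 253 to 492 CPM. Those of D9 B (21 cells) carried 28.1 CPM of Col5a2, against 88.5 to 120 CPM.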

How the results depend on the processing

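Steady-state levels rest on 1 library for fibroblast-like, BEC-like and large-vessel endothelium-like cells, and low counts limit the collagens under 10 CPM. Without the replicate block, that is without the protocol or library term, the collagens called were 4 for large-vessel endothelium-like against LSEC-like cells, 11 for BEC-like against macrophage-like, 0 for diet in macrophage-like cells and 3 for portal fibroblast-like against stellate-list cells. DESeq2 called 1 for diet and 1 for progression against onset in fibroblast-like cells, 4 and 1 in LSEC-like cells, and 2 for progression in macrophage-like cells. Over all genes it called 23 and 10, 299 and 68, and 208 in the same order. With no filter the diet and progression counts were 2 and 1 in fibroblast-like, 3 and 3 in LSEC-like, 2 and 2 in large-vessel endothelium-like, 4 and 5 in BEC-like and 6 and 4 in macrophage-like cells, and 4 for the difference between fibroblast-like and LSEC-like cells. No share over all genes was taken with no filter, so these counts have no background beside them. Without cells carrying markers of another lineage they were 1 for progression and 6 for STOP in large-vessel endothelium-like cells. For portal fibroblast-like against stellate-list cells the count was then 7.

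Leaving out 1 library at a time gave 27 to 28 collagens for fibroblast-like against LSEC-like, large-vessel endothelium-like and BEC-like cells each, 31 to 32 against macrophage-like, 9 to 13 for large-vessel endothelium-like against LSEC-like and 14 to 16 for BEC-like against macrophage-like. The diet counts were 0 to 2 in fibroblast-like, 0 to 3 in LSEC-like, 0 to 2 in large-vessel endothelium-like, 1 to 3 in BEC-like and 2 to 4 in macrophage-like cells. The progression counts were 0 to 2, 0 to 0, 0 to 1, 0 to 1 and 0 to 1 in the same order, and 0 to 1 for the difference. The diet comparisons could not be fitted without D0 A where it was the only D0 library. The diet and progression comparisons of fibroblast-like cells could not be fitted without D25 B, nor their progression comparison without D5 B. The comparison of portal fibroblast-like with stellate-list cells has 2 libraries. With the set-aside fibroblast-like cells put back, an alternative chosen after seeing the data, Col13a1 against macrophage-like cells turned to 0.19 on the log2 scale, and the diet changes of Col1a1 and Col3a1 to -0.17 and -0.55. The cause of these changes was not tested. Without the Mup-led fibroblast sub-cluster, also chosen after seeing the data, no count of collagens called changed. Portal fibroblast-like against stellate-list cells could then not be fitted. Over all alternatives, single-gene values stayed on their side of the threshold with the same direction in 2161 cases, including genes never called, while 70 lost a call, 9 gained one and 3 changed sign.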

Other observations

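Mesothelium-like cells, named from markers of the liver surface lining, were compared with no other type. They held 20 or more cells in 6 libraries of the diet series. Col4a4 ranged from 34.9 to 237 CPM in them, Col4a5 from 59.9 to 99.99 and Col4a6 from 24.9 to 94.3, while Col1a1 ranged from 122 to 901 CPM and Col3a1 from 420 to 2460. Collagens made up 0.234% to 0.651% of their UMIs.

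The number of Col1a1 UMIs per Col1a2 UMI was taken in fibroblast-like cells. It was 0.590 in D0 A, 1.18 in D5 B, 0.850 in D9 A, 0.777 in D19 A, 1.03 in D25 A and 1.78 in D25 B. UMIs are not scaled by transcript length, so only differences of this ratio between libraries can be read. The libraries differed in their mix of subtypes, and the part of this mix was not tested.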
